A study of Mus musculus with 10 samples.

Results

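The solute carrier mRNAs were described over all 6 groups of a serum-response experiment in mouse embryonic fibroblasts. Members were the probe sets whose platform annotation gave 1 symbol of the form Slc, number, letter, number, with Slc11a2 left out. There were 182 such probe sets for 149 genes, of 12422 probe sets that were not controls. 28 genes had more than 1 probe set. 3 of the 149 genes, Slc4a1ap, Slc9a3r1 and Slc9a3r2, carry a carrier's name but encode associated proteins that are no carriers, and were set apart.

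Solute carriers are membrane proteins that move small molecules across the plasma membrane and the membranes of organelles, by facilitated diffusion or by coupling to the gradient of an ion. They bring amino acids, sugars, phosphate, metals and vitamins into the cell, exchange metabolites over the inner mitochondrial membrane and supply the Golgi with nucleotide sugars. Fibroblasts that leave quiescence in serum are classically known to raise their uptake of glucose, phosphate and amino acids.

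The cells were primary fibroblasts from e14.5 embryos of strain C57/BLACK6 with the genotype ATF1 +/-, which all 6 groups shared. All cultures were held for 48 h in 1% dialyzed fetal bovine serum. They then spent 2 h in medium with 10% serum (serum-treated) or 1% serum (starved). RNA came from the cytoplasm of cells lysed without cycloheximide, with 1 array per serum state, or from a sucrose gradient of cells kept with cycloheximide at 100 ug/ml for 30 min. The gradient gave polyribosome RNA, carried by 2 or more ribosomes, and undertranslated RNA, with at most 1 ribosome, with 2 arrays per serum state and part. Replicate 2 of every gradient group came from cultures that also received 200 uM 4-thiouridine, a nucleoside that labels new RNA, and 3H-cytidine. The cultures were therefore heterozygous for Atf1 throughout, and the set holds no wild-type group. The labels call the replicates biological. Polyribosome and undertranslated RNA are parts of a gradient, so arrays with the same number and serum state may share their cells, and no fit had a term for this.

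Values are array intensities. An array's background was set at its brightest unspiked microbial control, out of 19 such controls, and was 6.7 to 16.1. The undertranslated arrays were the dimmest, with medians of 5.7 to 8.8 against 19.1 or more elsewhere. Of the 182 members, 118 to 130 lay above background on each polyribosome array, against 101 and 114 in cytoplasmic RNA and 76 to 90 in undertranslated RNA. Over all members, replicate arrays correlated across probe sets at r = 0.959 or above for polyribosomes, 0.861 for undertranslated RNA of starved cells and 0.777 for that of serum-treated cells. Of 16 fibroblast markers, 15 were measured and all 15 lay above background on all 6 polyribosome and cytoplasmic arrays. The ratio of 3' to 5' signal of the actin control ran from 11.5 to 21.1 on those 6 arrays and from 23.6 to 137 on the undertranslated arrays. That of the Gapdh control went the other way, at 6.11 to 47.03 and 3.70 to 6.81.

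Of the members, 91 probe sets for 85 genes, 50% of all members, lay above background on all 6 polyribosome and cytoplasmic arrays, as did 52.8% of all probe sets. Another 36 members lay above it on none of the 6, and 33 on none of the 10 arrays. 47 members lay above background on all 10 arrays, 25.8% of members against 29.2% of all probe sets. 67 members were above it on no undertranslated array, and 11 of these were above it on all 6 others. By substrate class, 14 of 20 genes for mitochondrial carriers (the SLC25 family) were above background on all 6, as were 13 of 15 for metal carriers, 9 of 12 for nucleoside and nucleotide sugar carriers and 20 of 32 for amino acid carriers. 6 of 11 sugar carrier genes and 8 of 20 ion carrier genes reached that level. Of 17 genes for organic anion, cation and monocarboxylate carriers only 4 did so. None of the 3 genes in the families grouped as vesicular (Slc17a1, Slc18a3 and Slc32a1) did. These classes follow the family number, and some members move another substrate: Slc6a8 takes up creatine and Slc5a6 takes up vitamins.

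Some members known from other tissues were dim. Slc2a2, the glucose carrier of liver and pancreatic beta cells, read 2.6 to 8.9 on the polyribosome and cytoplasmic arrays. Slc5a1, the intestinal sodium-glucose carrier, read 0.3 to 9.9 and Slc32a1, which loads GABA into synaptic vesicles, 1.2 to 11.9. All 3 were below background on each of those 6 arrays. Slc7a1, which takes up arginine and lysine, and Slc7a11, the cystine-glutamate exchanger, were below background on all 6 too, at 1.8 to 4.1 and 1.4 to 12.2. Slc16a1, a lactate carrier, read 0.6 to 0.9 on the cytoplasmic arrays and 10.1 to 23.4 on the polyribosome arrays, and was above background on 2 arrays. These last 3 genes were below the level needed for testing.

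The first comparison asked which carrier mRNAs differ after 2 h of serum in the polyribosome and cytoplasmic pools together, 3 serum-treated against 3 starved arrays. Only Slc35e4 and Slc66a2 passed the test, and both rose. Slc35e4 is an orphan of the family that holds the nucleotide sugar carriers, and Slc66a2 encodes a membrane protein with PQ-loop repeats whose substrate is not well known. 139 member probe sets for 122 genes had enough signal to be tested, of 9316 in all. The test was limma on quantile-normalized log2 values with the pool as a covariate, with Benjamini-Hochberg adjustment over all 9316. Of the 139, 2 were higher and 0 lower at an adjusted p under 0.05, against 0.666% higher and 0.225% lower among all probe sets, and 12 had an unadjusted p under 0.05, against 11.7%. The median difference was -0.01 log2 units both for the tested members and for all probe sets tested.

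Slc35e4 read 96.4 in starved and 259.8 in serum-treated cytoplasmic RNA. In polyribosome RNA it read 142.7 and 324.6 for replicate 1 and 150 and 464.7 for replicate 2. All 3 serum-treated arrays lay above all 3 starved arrays. On the normalized scale the difference was 1.30 ± 0.20 (SE), 2.47-fold, and the limma adjusted p was 0.0233. It was higher in 3 of 3 pairs of arrays of the same pool, by 1.40, 1.14 and 1.37 log2 units. In undertranslated RNA the starved arrays read 9 and 18.5 and the serum-treated arrays 1.7 and 15, so no rise was seen there, and the value of 1.7 was below background.

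Slc66a2 read 573.6 in starved and 1216.7 in serum-treated cytoplasmic RNA. Its polyribosome values were 710.1 and 435.4 in starved and 1321.6 and 907.8 in serum-treated cells. Again the groups did not overlap. The difference was 1.07 ± 0.19 (SE), 2.11-fold, with a limma adjusted p of 0.0392, and it was higher in 3 of 3 pairs. In undertranslated RNA it read 44.2 and 55.4 starved against 31.5 and 57 serum-treated. On the normalized scale it was higher after serum in both undertranslated pairs, at 0.56 ± 0.27 (SE), and did not pass (limma adjusted p = 0.291).

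Both calls rest on few arrays. Neither passed without either cytoplasmic array, without starved polyribosome replicate 1 or without serum polyribosome replicate 2, and Slc35e4 alone passed without serum polyribosome replicate 1 or starved polyribosome replicate 2. Slc35e4 and Slc66a2 were higher after serum in all 16 alternative settings, with other scalings taken relative to the median of all probe sets. They passed in 10 and 6 of them. Relative to that median the other scalings give the same difference by construction. Leaving out 1 or the other cytoplasmic array also gives the same difference, so the 16 settings are not all separate checks of direction. In the fit of the 4 polyribosome arrays alone, the differences were 1.26 ± 0.26 (SE) for Slc35e4 and 0.99 ± 0.25 for Slc66a2, with limma adjusted p-values of 0.207 and 0.373.

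**Figure D1:**
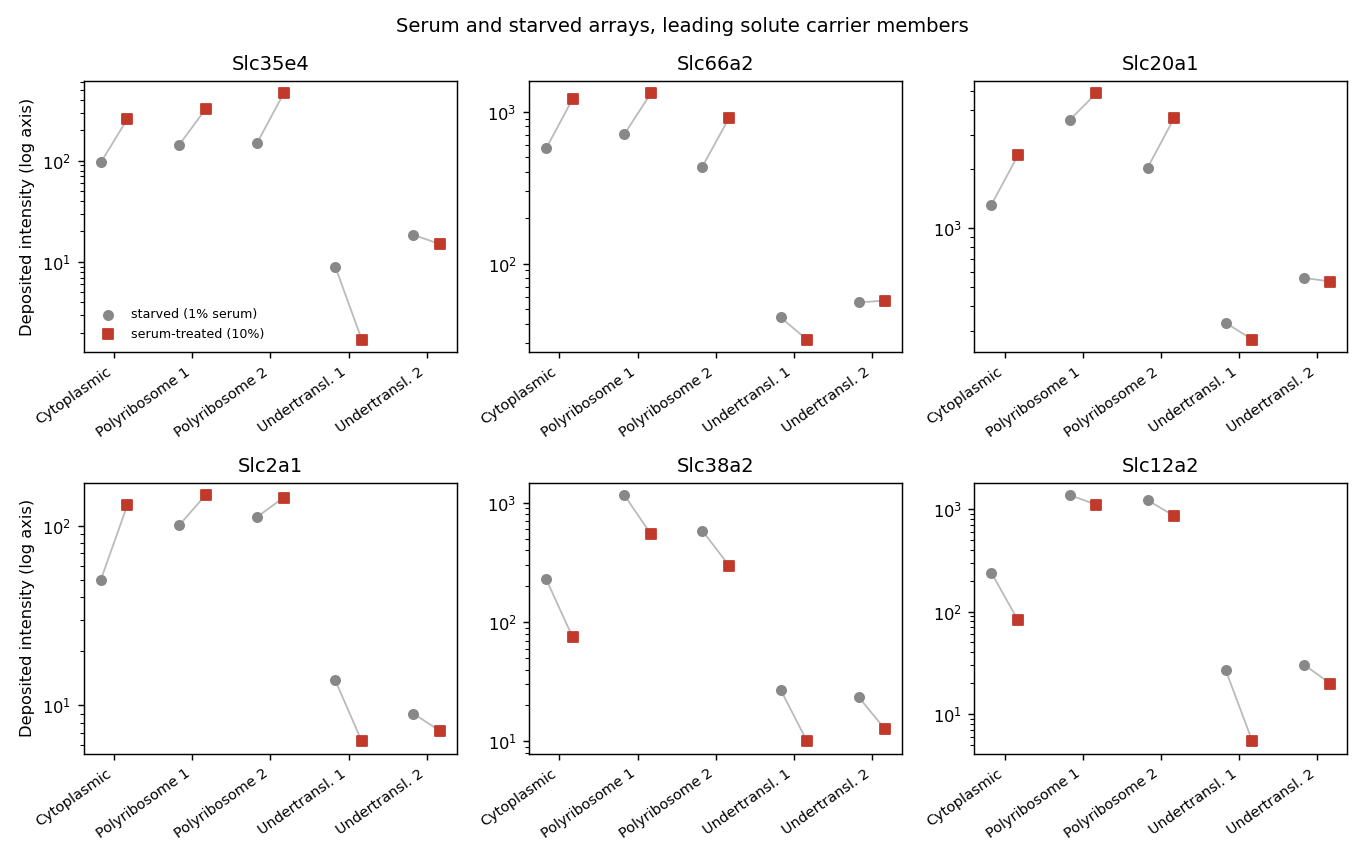
Deposited intensity (log axis, 1 point per array) of 6 solute carrier members, starved in grey circles and serum-treated in red squares, with same-numbered arrays of a pool joined. Slc35e4, Slc66a2, Slc20a1 and Slc2a1 lie higher after serum in all 3 cytoplasmic and polyribosome pairs, and Slc38a2 and Slc12a2 lie lower.

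Where replicate number entered as a block, 4 members passed: Slc35e4, Slc66a2, Slc20a1 and Slc38a2. The share of all probe sets called in that fit is not given, so this count does not set carriers apart. Slc20a1, a sodium-phosphate cotransporter that also serves as a retrovirus receptor, read 1318.4 starved and 2356.7 serum-treated in cytoplasmic RNA. In polyribosome RNA it read 3558.8 and 4874 for replicate 1 and 2038.3 and 3654.6 for replicate 2. It was higher after serum within each pair, while the polyribosome groups overlapped across replicates. The difference was 0.92 ± 0.21 (SE), with a limma adjusted p of 0.114 without the block and 0.0271 with it.

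Slc38a2 takes up small neutral amino acids and is known for its induction when amino acids are short. It read 229.2 starved and 74.4 serum-treated in cytoplasmic RNA. Its polyribosome values were 1160.2 and 547.2 for replicate 1 and 582.4 and 297.8 for replicate 2. It was lower after serum in all 3 pairs, and in the undertranslated pairs as well, at 27.2 against 10 and 23.5 against 12.6. The difference was -0.93 ± 0.25 (SE), with a limma adjusted p of 0.159 without the block and 0.0409 with it. Its 3 other probe sets, all with the suffix that marks a reduced probe choice, were too dim to test.

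The stretches before the transcription start of these genes are shown because they lead the serum comparison; Slc66a2 is named only. They are the 250 bases before the first start listed by RefSeq in build GRCm38.p6, written along the gene, with matches to searched motifs in capitals. The Slc35e4 stretch is chr11:3914665-3914914 on the minus strand, that of Slc20a1 chr2:129198523-129198772 on the plus strand and that of Slc38a2 chr15:96699729-96699978 on the minus strand.
Slc35e4: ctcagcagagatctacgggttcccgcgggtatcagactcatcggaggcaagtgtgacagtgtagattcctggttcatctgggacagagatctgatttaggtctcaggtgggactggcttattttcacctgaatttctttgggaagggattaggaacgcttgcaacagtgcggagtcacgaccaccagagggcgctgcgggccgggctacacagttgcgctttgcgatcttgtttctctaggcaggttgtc
Slc20a1: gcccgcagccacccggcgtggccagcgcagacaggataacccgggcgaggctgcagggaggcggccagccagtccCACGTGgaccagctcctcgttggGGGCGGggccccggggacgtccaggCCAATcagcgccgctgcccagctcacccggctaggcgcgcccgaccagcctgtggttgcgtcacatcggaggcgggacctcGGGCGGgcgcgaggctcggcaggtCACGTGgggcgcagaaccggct
Slc38a2: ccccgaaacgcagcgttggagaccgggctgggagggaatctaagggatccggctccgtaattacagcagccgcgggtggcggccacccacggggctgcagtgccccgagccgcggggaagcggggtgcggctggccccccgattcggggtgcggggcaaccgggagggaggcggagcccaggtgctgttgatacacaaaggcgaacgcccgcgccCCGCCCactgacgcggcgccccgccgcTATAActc
Both strands were searched for the AP-1 motif TGANTCA, the cyclic AMP response element TGACGTCA, the E-box CACGTG, the CArG box, the GC box GGGCGG and the boxes CCAAT and TATAA, whose matches overlapped nowhere in these stretches. Slc35e4 held none of the 7. Slc20a1 held 2 copies of CACGTG, 2 of GGGCGG and 1 of CCAAT, and Slc38a2 held 1 of GGGCGG and 1 of TATAA. Of all 32851 listed promoters, 6.02% held the E-box, 32.7% the GC box, 33.8% the CCAAT box, 22.8% the TATA motif, 6.75% the AP-1 motif, 1.55% the cyclic AMP response element and 1.47% the CArG box within the same length. Slc20a1 has a second listed start, which was not searched. 123 of the 149 member genes have a promoter in that table.

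By substrate, no class other than those of Slc35e4 and Slc66a2 had a called member. Among sugar carriers, 0 of 9 tested genes passed, and their median difference was 0.06. Slc2a1, the widely expressed glucose carrier, read 50 starved and 130.4 serum-treated in cytoplasmic RNA, and 100.2 and 148, then 111.8 and 143.4, in the polyribosome pairs. All 3 serum-treated arrays were above all 3 starved ones, but the difference of 0.76 ± 0.22 (SE) had a limma adjusted p of 0.204. Slc2a3, a high-affinity glucose carrier, differed by 0.15 ± 0.20 (adjusted p = 0.836) in its brighter probe set. The dimmer one differed by 1.21 in the cytoplasmic pair and 0.96 and -0.08 in the polyribosome pairs, and did not pass. It was above background on 1 of 2 serum-treated and 0 of 2 starved polyribosome arrays.

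Among amino acid carriers 0 of 27 genes passed, with a median of -0.04. Slc3a2, the heavy chain shared by several amino acid exchangers, read 1170.5 starved and 795.9 serum-treated in cytoplasmic RNA and 1048.4 to 1120.1 on all 4 polyribosome arrays. The fitted difference was -0.06 ± 0.20 (limma adjusted p = 0.942). Its partner Slc7a5, a carrier of large neutral amino acids, was at 0.28 ± 0.22. Slc1a4 and Slc1a5, exchangers of small neutral amino acids, were at -0.32 ± 0.26 and 0.33 ± 0.27. The taurine carrier Slc6a6 was at 0.01 ± 0.17 and the glycine carrier Slc6a9 at -0.19 ± 0.18. None of these passed, the lowest limma adjusted p being 0.675 for Slc7a5.

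Ion carriers had 0 of 15 called genes and the widest range of the classes, from -0.68 to 0.92. Slc12a2, the sodium-potassium-chloride cotransporter that loads cells with chloride, read 238.5 starved and 82.2 serum-treated in cytoplasmic RNA, against 1372.4 and 1106.7, then 1221.9 and 857, in polyribosome RNA. It was lower after serum in all 3 pairs, and the difference was -0.60 ± 0.23 (limma adjusted p = 0.356). Slc8a1, a sodium-calcium exchanger, was lower in all 3 pairs too, at -0.68 ± 0.22 (adjusted p = 0.255).

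Mitochondrial carriers had 0 of 19 called genes, with a median of -0.07. The ADP/ATP exchangers Slc25a4 and Slc25a5 were at 0.10 ± 0.17 and 0.12 ± 0.22, and the phosphate carrier Slc25a3 at -0.07 ± 0.32. Slc25a14, an uncoupling-protein relative, was lower in all 3 pairs, at -0.92 ± 0.22 (limma adjusted p = 0.123). Metal carriers had 0 of 15 called, with a median of 0.01, among them the copper importer Slc31a1 at 0.01 ± 0.23, the zinc exporter Slc30a1 at -0.08 ± 0.19 and the zinc importer Slc39a1 at 0.45 ± 0.21. The folate carrier Slc19a1 was at 0.04 ± 0.17 in its brighter probe set and at 1.10 ± 0.37 in the other, which was higher in 3 of 3 pairs and did not pass either (limma adjusted p = 0.294). The nucleoside carrier Slc29a1 was at 0.13 ± 0.26 in the brighter probe set and at -0.26 ± 0.46 in the other, which was the one above background on all 6 arrays. The CMP-sialic acid carrier Slc35a1 was at -0.24 ± 0.19. The sign of several of these near-zero values depends on the scaling or on single arrays.

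Counting direction alone, 19 of the 139 tested members were higher and 21 lower in all 3 pairs, against 18.2% and 19.8% of all probe sets. Of the 91 members above background on all 6 arrays, 16 were higher and 15 lower in all 3, against 20.1% and 20.4%. As shares of the members, all 4 counts lie below these backgrounds.

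**Figure D2:**
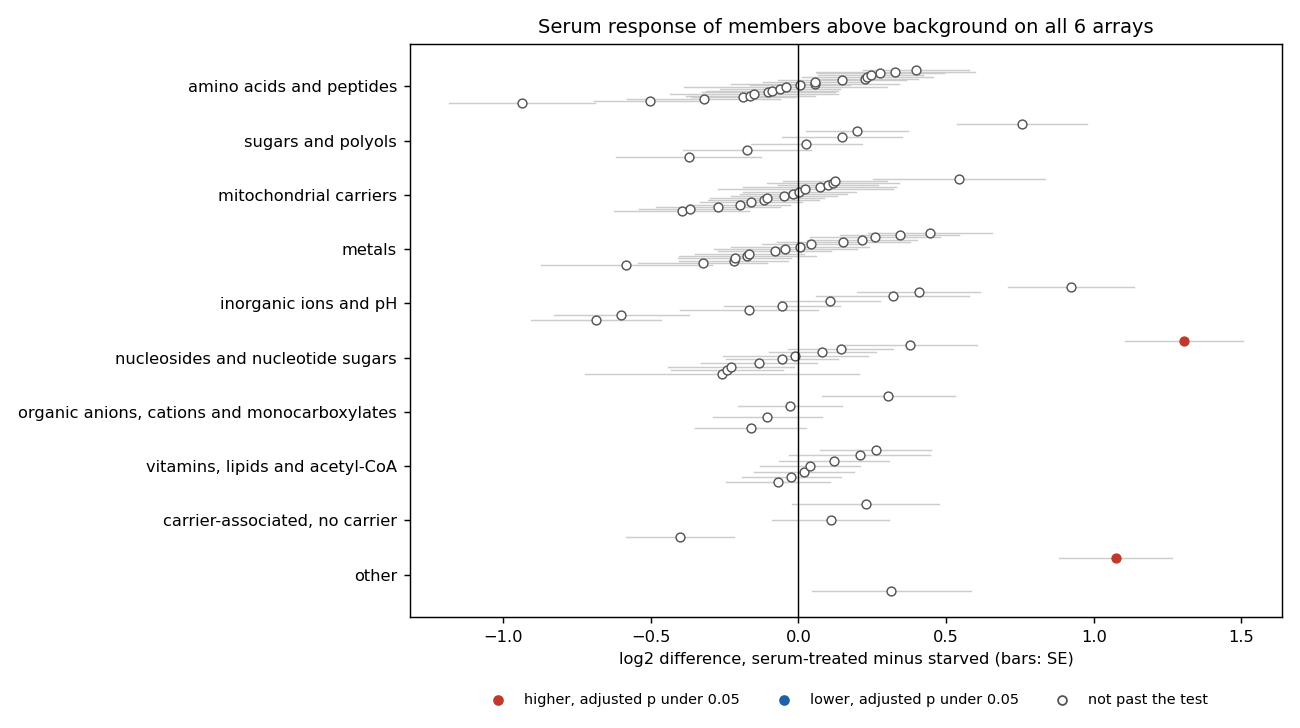
Serum response (log2 difference, serum-treated minus starved, with SE) of the 91 member probe sets above background on all 6 polyribosome and cytoplasmic arrays, by substrate class. Of these points 2 passed the test, Slc35e4 at 1.30 and Slc66a2 at 1.07, and most others lie close to 0.

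Macrophage markers moved with serum in the same fit: 5 of 11 tested rose and 0 fell, with a median of 1.10, and 7 of 14 measured lay above background on all 6 arrays. Their summed intensity was 419.5 starved and 918.3 serum-treated in cytoplasmic RNA, and 1391.6 to 1709 against 4137.7 to 5200.9 in polyribosome RNA. Adgre1, Csf1r, C1qa and Fcgr3 were above background on 5 of 6 arrays, Ptprc on 2, Fcer1g on 1 and Aif1 on none. In bulk RNA, more cells of a type and more RNA per cell cannot be told apart, and the part of other cells in the rise of Slc35e4 and Slc66a2 was not tested. Slc11a1, the metal carrier of macrophage phagosomes, was above background on 5 of the 6 arrays. It read 14.1 and 13.2 in starved and serum-treated cytoplasmic RNA, 33.8 and 34.9 in the first polyribosome pair and 27.7 and 72.1 in the second, a difference of 0.39 ± 0.28 (limma adjusted p = 0.648). No endothelial, epithelial, erythroid or neuronal marker passed.

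Listed transport genes outside the family had no called serum response either. Among all probe sets 0.666% were called higher and 0.225% lower, and at that rate lists this short may hold no call. None of 21 ABC transporters, 15 P-type ATPases, 15 subunits or accessory proteins of the vacuolar ATPase, 42 channel subunits, 5 aquaporins, 2 Slco carriers or 4 listed partner proteins passed, with list medians from -0.31 for aquaporins to 0.24 for the partners.

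The second comparison asked how carrier mRNAs divide between polyribosomes and the undertranslated part of the gradient, averaged over both serum states. Quantile normalization sets each mRNA relative to its own array. After it, Slc38a10, the chloride cotransporters Slc12a4 and Slc12a2 and the Golgi sulfate donor carrier Slc35b2 were among the most shifted to polyribosomes. Slc39a4, Slc38a5, Slc12a5 and Slc16a8 were the most shifted the other way. Of these, Slc12a5 and Slc16a8 were not above background on every polyribosome array. Of 139 members, 30 were higher and 35 lower in polyribosome RNA by limma with adjustment over all probe sets, against 28.7% and 25.5% of all probe sets. The members' median was 0.04, and that of all probe sets 0.05.

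These directions are relative to the array. On deposited values the median of all probe sets was 3.02 log2 units higher in polyribosome RNA, and 122 members were higher and 0 lower. With arrays scaled by hybridization controls the shift was 3.33, with 127 higher and 0 lower. With arrays centred on their medians it was 0.55, with 59 higher and 32 lower. The shares of all probe sets called under these scalings are not given, so these counts do not set carriers apart. Of the 30 members called higher, 4 were above background on every gradient array and 11 were above it on no array of 1 side. Of the 35 called lower, 19 were above it on every array.

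Slc38a10, a relative of the neutral amino acid carriers, read 698.8 to 879.5 in polyribosome RNA. In undertranslated RNA it read 1.8 to 17.5, with 1 of 4 arrays above background. The normalized difference was 4.14 ± 0.51 (SE), with a limma adjusted p of 0.000323. Slc35b2, which brings the sulfate donor into the Golgi, read 217.6 to 388.4 against 1.6 to 8.9, with 1 of 4 undertranslated arrays above background, a difference of 3.67 ± 0.45 (adjusted p = 0.000298). Slc12a4, a potassium-chloride cotransporter, read 262.9 to 436.5 against 0.8 to 9.6, with 2 of 4 above background, a difference of 3.29 ± 0.38. The groups lay far apart for all 3, but the sizes rest on undertranslated values that are mostly near or below background, so their order is not firm.

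Slc6a8, the creatine carrier, read 886.6 to 1487.4 on polyribosome and 1.9 to 32 on undertranslated arrays, at 2.51 ± 0.60. Slc39a7, which releases zinc from the endoplasmic reticulum and Golgi, read 382.6 to 503.4 and 6.4 to 11, at 2.28 ± 0.30. Slc12a2 read 857 to 1372.4 and 5.4 to 30.3, at 2.21 ± 0.38. Each of these passed, with limma adjusted p-values of 0.00783, 0.000466 and 0.00157. Slc25a25, a mitochondrial carrier of ATP-magnesium and phosphate, was at 2.11 ± 0.45, and Slc41a1, a magnesium carrier, at 2.06 ± 0.72. Slc41a1 lost its call without any 1 polyribosome array and without either undertranslated replicate 1, with values of 1.33 to 2.79 over all 8 omissions. Slc38a2 was higher by 1.36 ± 0.27 and above background on all 8 arrays, as were Slc35b1 at 0.93 ± 0.15, Slc25a4 at 0.39 ± 0.14 and the brightest probe set of Slc8a1 at 0.98 ± 0.28. Slc25a4 kept its call without serum undertranslated replicate 2 or serum polyribosome replicate 1 and lost it without each of the 6 other arrays. A second probe set of Slc8a1 was called the other way, at -1.81 ± 0.44 (limma adjusted p = 0.0083), but was above background on 1 of 4 polyribosome and 2 of 4 undertranslated arrays, so the gene has no single direction here.

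Where a member was above background on no undertranslated array the fold is given as a bound on the normalized scale. For it each dim array counted as its faintest level clear of background, or as the member's own level where that was higher. Slc1a6, a glutamate carrier best known from cerebellar neurons, was at least 3.14-fold higher in polyribosome RNA. It read 149.1 to 306.5 there and 1.4 to 4.1 in undertranslated RNA. Slc12a7 was at least 2.67-fold higher, the zinc carrier Slc39a9 at least 1.77-fold and the cationic amino acid carrier Slc7a3 at least 1.75-fold.

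Among members shifted to the undertranslated part, Slc30a3, a zinc carrier known from synaptic vesicles, read 377.2 to 495.4 on polyribosome and 114 to 155.6 on undertranslated arrays. It was brighter on polyribosome arrays in deposited units, but by less than the arrays as a whole, so its normalized difference was -2.32 ± 0.20 (SE; limma adjusted p = 8.06e-05). Slc39a4, a zinc importer, read 175.4 to 280.1 against 61.2 to 128.3 with the brighter of its 2 probe sets, at -2.66 ± 0.21. That probe set carries the suffix of a reduced probe choice. The second probe set of Slc39a4, without it, was at -0.95 ± 0.58 and did not pass. Slc38a5, a glutamine carrier, read 54.1 to 68.2 against 27.1 to 35.7, at -2.43 ± 0.27.

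Slc25a39, which carries glutathione into mitochondria, read 388.5 to 491.2 on polyribosome and 40.9 to 199.7 on undertranslated arrays, at -1.89 ± 0.17. Larger shifts this way were those of Slc12a5 at -2.41, Slc16a8 at -2.39, Slc10a6 at -2.33, Slc6a13 at -2.25 and Slc44a4 at -2.14. Slc12a5 is the chloride extruder of mature neurons, Slc16a8 a lactate carrier of retinal pigment epithelium and Slc6a13 a GABA carrier. Slc16a8 was above background on 1 of 2 polyribosome arrays in each serum state. Slc10a6 was above it on 2 of 2 serum-treated and 1 of 2 starved polyribosome arrays. The sizes of these shifts therefore rest on polyribosome values near background. Deposited values of Slc12a5 were 6.4 to 27 on polyribosome and 12.4 to 17.6 on undertranslated arrays, so these groups overlapped before normalization. Slc4a1, the anion exchanger of red cells, was above background on none of the 4 polyribosome and all 4 undertranslated arrays, at 6 to 14.6 and 8.5 to 13.2. Its normalized level was at least 3.92-fold lower in polyribosome RNA, which holds within this scaling only. The glycine carrier Slc6a9 was lower by -1.52 ± 0.24 and the phosphate carrier Slc25a3 by -1.47 ± 0.35. Slc25a3 was above background on 1 of 2 polyribosome arrays in each serum state. In undertranslated RNA it was above it on 2 of 2 starved and 0 of 2 serum-treated arrays. Slc29a1 was at -2.01 ± 0.39 in the brighter of its 2 probe sets and at 1.09 ± 0.49, not passing, in the other, so the gene has no single direction here. Slc20a1 was at -0.56 ± 0.18 (adjusted p = 0.0252), but at 0.039 relative to the median of all probe sets under 3 other scalings. Those scalings give the same value by construction and are not separate checks. Slc20a1 also lost its call without a variance trend and without either polyribosome replicate 2. The same held without either undertranslated replicate 1 and without starved undertranslated replicate 2.

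By class, with 1 probe set per gene, 6 of 27 amino acid carrier genes were higher and 8 lower. For ion carriers the counts were 4 and 7 of 15, for metal carriers 4 and 3 of 15, for mitochondrial carriers 3 and 5 of 19, for nucleoside and nucleotide sugar carriers 3 and 1 of 10, and for sugar carriers 2 and 3 of 9. Every class with over 3 tested genes held genes called in both directions. Slc3a2 at 0.63 ± 0.24, Slc1a4 at 0.65 ± 0.27, Slc7a5 at 0.95 ± 0.41, Slc1a5 at 1.08 ± 0.64, Slc6a6 at 0.47 ± 0.21 and Slc2a1 at 0.80 ± 0.33 did not pass. In the fit of probe sets above background on all 8 gradient arrays, Slc3a2, Slc7a5 and Slc1a4 were called higher, with limma adjusted p-values of 0.0343, 0.0382 and 0.0436. Slc2a3 at 0.50 ± 0.34 and Slc31a1 at 0.09 ± 0.26 did not pass either, while the vitamin carrier Slc5a6 passed at 1.32 ± 0.39, though not without either polyribosome replicate 1 or starved polyribosome replicate 2.

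When only probe sets above background on all 8 gradient arrays were fitted, 9 of 48 members were higher and 21 lower, against 22.7% and 46.6%. In the fit of all 9316 probe sets, where 28.7% were higher and 25.5% lower, 9 of 15 genes of the vacuolar ATPase were higher and 3 lower, with a median of 0.94, 7 of 21 ABC transporters were higher and 4 lower, and 5 of 42 channel subunits were higher and 14 lower.

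**Figure D3:**
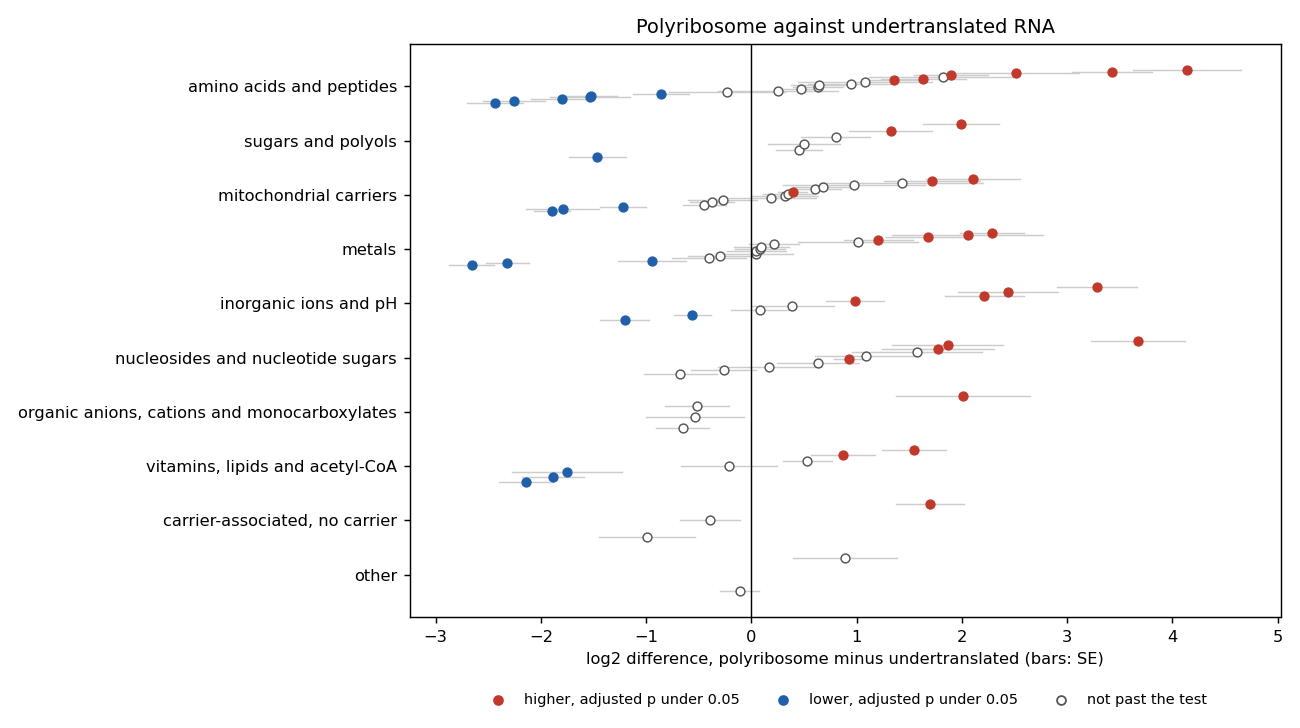
Log2 difference, polyribosome minus undertranslated RNA, with SE, on quantile-normalized values for the 91 member probe sets above background on all 6 polyribosome and cytoplasmic arrays. Called members lie on both sides of 0, from Slc39a4 at -2.66 to Slc38a10 at 4.14.

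The third comparison set polyribosome RNA against cytoplasmic RNA and does not use the dim undertranslated arrays, though it shares its polyribosome arrays with the second. The cytoplasmic side has 1 array per serum state and no cycloheximide, so treatment and RNA pool cannot be told apart. Carriers lower in polyribosome RNA were led by Slc39a1, Slc66a2, Slc25a39 and Slc3a2, and those higher by Slc12a2 and Slc31a1. Of 139 members 10 were higher and 16 lower by limma, against 14.49% and 11.95% of all probe sets. Of the 16 lower, 15 were above background on all 6 arrays, and so were 7 of the 10 higher. On deposited values the median of all probe sets was higher by 1.31 and 93 members were higher and 1 lower. With hybridization control scaling it was -0.28, with 5 higher and 23 lower. The shares of all probe sets called under these scalings are not given, so these counts do not set carriers apart. Fewer members passed when either cytoplasmic array was left out, which leaves 1 cytoplasmic array.

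Slc39a1, a zinc importer of the plasma membrane, read 94.3 starved and 135.4 serum-treated in cytoplasmic RNA and 35.1 to 74.5 on the polyribosome arrays. In deposited units too, every polyribosome array lay below both cytoplasmic arrays. The normalized difference was -2.05 ± 0.22 (SE), with a limma adjusted p of 0.000757. Its second probe set was at 0.06 ± 0.29 and was above background on 3 of the 6 arrays.

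Slc66a2 was lower in polyribosome RNA by -1.72 ± 0.20, Slc25a39 by -1.61 ± 0.20 and Slc3a2 by -1.49 ± 0.21. All 3 passed in each of 16 alternative settings, with other scalings taken relative to the median of all probe sets, as did Slc39a1. Relative to that median the other scalings give the same difference by construction, so they are not separate checks of its size. Every other member named as called between these pools lost its call without the serum-treated cytoplasmic array. Slc25a39 read 582.6 and 374.4 in cytoplasmic RNA and 388.5 to 491.2 in polyribosome RNA. Slc3a2 read 1170.5 and 795.9 against 1048.4 to 1120.1. In deposited units both therefore stayed level between pools while the arrays as a whole differed. Slc22a17 was lower by -1.22 ± 0.20, the bicarbonate exchanger Slc4a2 by -1.19 ± 0.22, the choline-like carrier Slc44a2 by -1.15 ± 0.19 and Slc39a7 by -1.01 ± 0.21. Slc35e4 was also lower, by -0.76 ± 0.21 (adjusted p = 0.0286).

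Slc12a2 was higher in polyribosome RNA by 1.33 ± 0.24, at 857 to 1372.4 against 238.5 and 82.2 in cytoplasmic RNA, and the groups lay well apart. The copper importer Slc31a1 read 1319.9 to 2503.5 against 363.9 and 230.4, at 1.14 ± 0.25. Its second probe set was at 0.11 ± 0.20 and did not pass. Slc30a5, a zinc carrier of the secretory pathway, was at 0.46 ± 0.26 in its brighter probe set, which did not pass. Its dimmer probe set was called, at 1.11 ± 0.23. Slc33a1, the acetyl-CoA carrier of the endoplasmic reticulum, was at 1.10 ± 0.24, the amino acid carrier Slc38a4 at 0.97 ± 0.23, the brightest probe set of Slc8a1 at 0.94 ± 0.23 and the carnitine-acylcarnitine carrier Slc25a20 at 0.91 ± 0.19. For Slc25a5 a dimmer probe set was at 1.23 ± 0.28, whereas the brightest of its 3 was at 0.04 ± 0.24.

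Both pool comparisons use the same 4 polyribosome arrays and are not independent, so values are only set side by side, against undertranslated RNA first. Slc25a39 was at -1.89 and -1.61, and Slc10a6 at -2.33 and -0.94, though Slc10a6 was not above background on every polyribosome array. Slc12a2 was at 2.21 and 1.33, the brightest probe set of Slc8a1 at 0.98 and 0.94, Slc25a20 at 1.71 and 0.91 and the zinc carrier Slc30a9 at 1.21 and 0.70. Other members lay on opposite sides of 0: Slc12a4 was at 3.29 and -0.94, Slc39a7 at 2.28 and -1.01, Slc25a25 at 2.11 and -0.89 and Slc44a2 at 0.87 and -1.15. Each of these values passed its own test, and so did Slc39a9, at least 1.77-fold higher and at -0.91. Against undertranslated RNA, Slc30a9 lost its call without either polyribosome replicate 1 or serum polyribosome replicate 2, and Slc44a2 without any 1 polyribosome array or starved undertranslated replicate 1.

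**Figure D4:**
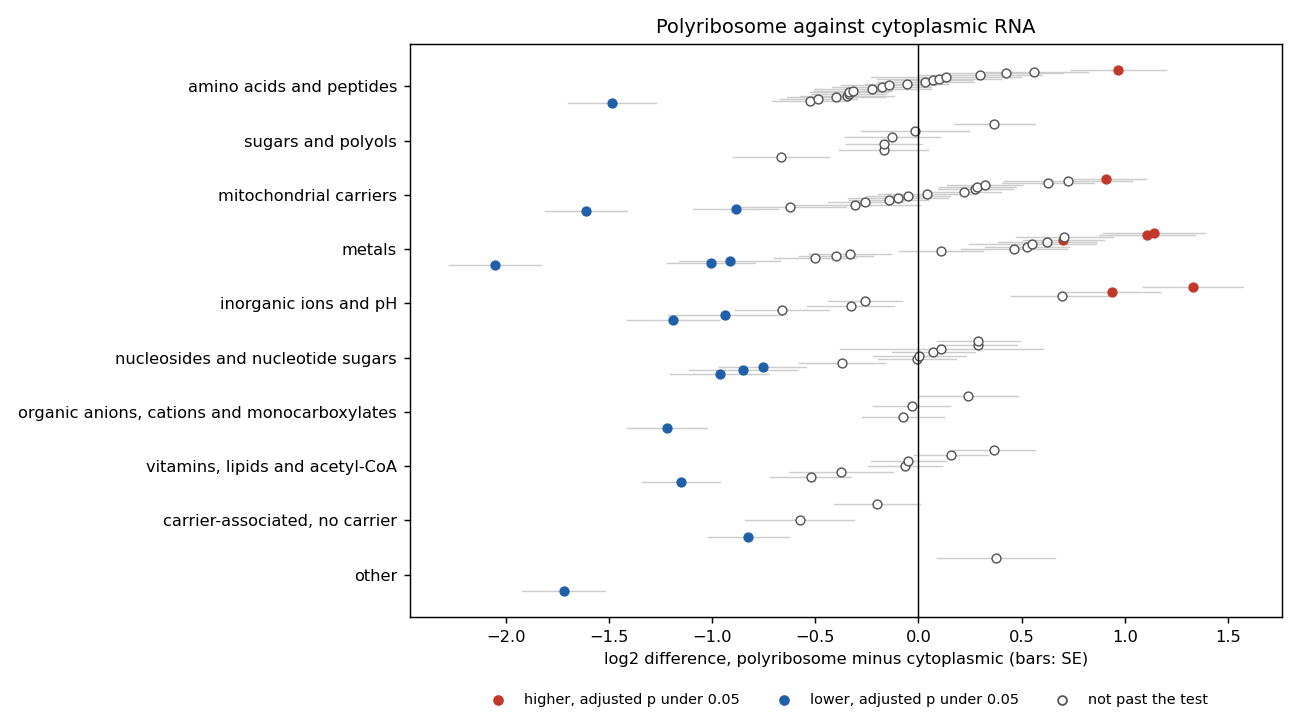
Log2 difference, polyribosome minus cytoplasmic RNA, with SE, on quantile-normalized values for the 91 member probe sets above background on all 6 arrays. The differences run from Slc39a1 at -2.05 to Slc12a2 at 1.33, a narrower range than against undertranslated RNA.

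**Figure D5:**
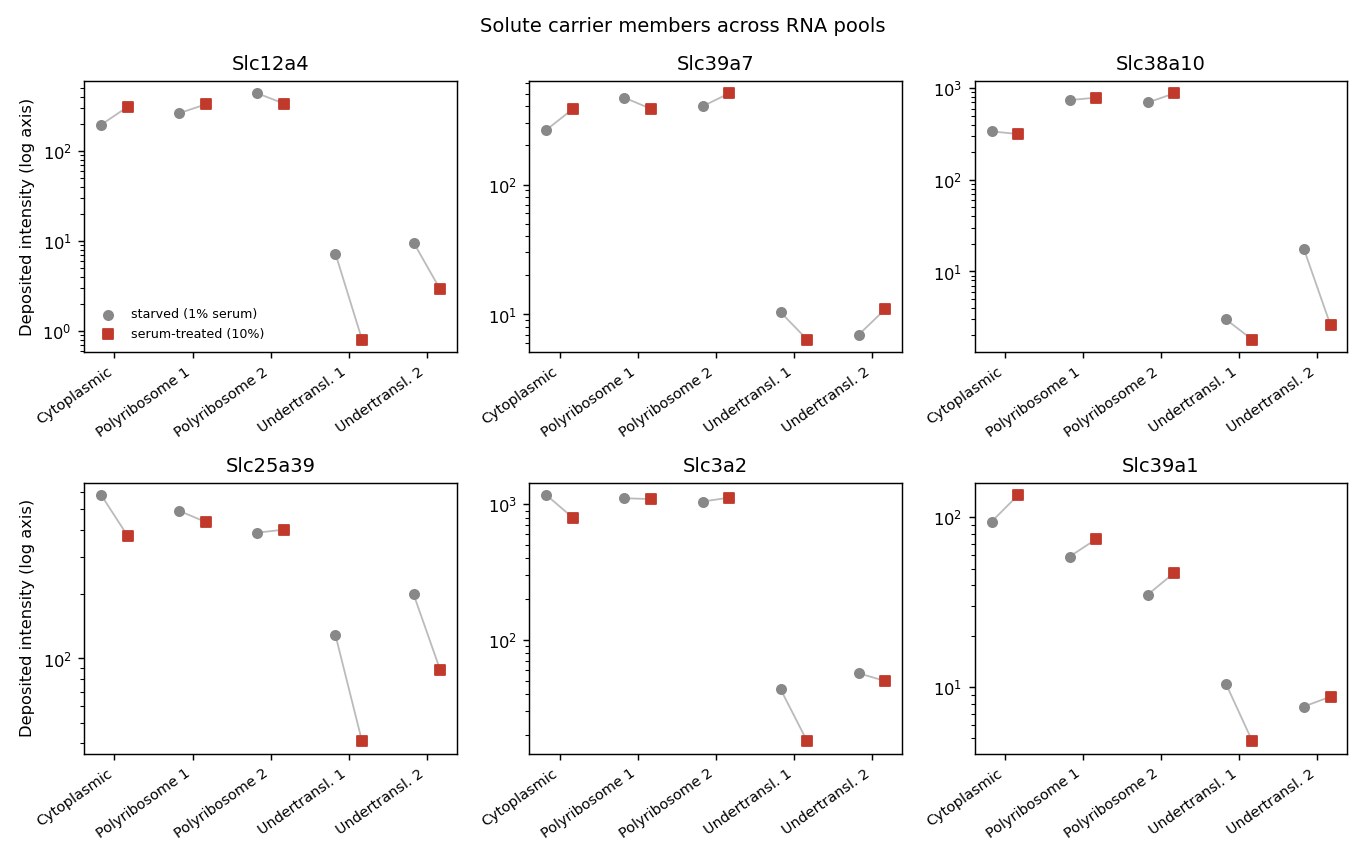
Deposited intensity (log axis, 1 point per array) of 6 members over all pools, starved in grey circles and serum-treated in red squares. Slc12a4, Slc39a7 and Slc38a10 drop far lower on undertranslated arrays than Slc25a39, and Slc39a1 is brighter in cytoplasmic than in polyribosome RNA.

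The last comparisons asked whether serum changed the division between gradient parts, and how carriers responded within each part. No member passed in any of them. For the change of the polyribosome against undertranslated difference with serum, 0 of 9316 probe sets passed (0.00% in either direction) and 8 members had an unadjusted p under 0.05, against 7.73% of all probe sets. The lowest p-value among members was that of Slc12a4, at 2.25 ± 0.76 (SE; limma adjusted p = 0.563), while Slc35e4 at 2.33 ± 1.23 and Slc6a8 at 2.28 ± 1.20 differed more, with larger errors (adjusted p = 0.699 for both). Some members passed without serum undertranslated replicate 2, a fit with 1 serum-treated undertranslated array. The share of all probe sets called in that fit is not given.

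In undertranslated RNA alone 0 of 139 members passed, against 1.07% of all probe sets, and 26 members had an unadjusted p under 0.05, against 18.9%. Slc25a3 came nearest, at 14.4 and 18.7 starved against 3 and 4.2 serum-treated, none of the latter above background. As a bound, its normalized level was at least 1.80-fold lower after serum, with a limma adjusted p of 0.0782. Some members passed when either serum-treated undertranslated array was left out, in fits with 1 array in that group. The shares of all probe sets called in those fits are not given. In polyribosome RNA alone 0 of 139 passed, against 0.0537% of all probe sets, with 5 members at an unadjusted p under 0.05, against 6.15%. With replicate number as a block Slc35e4 and Slc66a2 passed there, and the share of all probe sets called in that fit is not given.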

How the data were processed

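Amplified RNA was labelled and read on Affymetrix arrays (labels' protocols). The authors' deposited table gives a linear intensity for each probe set on each array. How the authors summarised or scaled the probes is not given in the sources used here. Gradient fractions were pooled before hybridization, per the labels' protocols, so p-values measure the spread between such samples, which may be partly technical. Of 12422 probe sets that were not controls, 10833 have 1 symbol in the platform annotation, 396 several and 1193 none. All 182 members matched the reference gene table.

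Values were taken as log2(value + 1.5) and quantile normalized over 10 arrays, since their medians spanned 2.95 log2 units. The pseudocount shrinks differences of dim genes. The dimmest 25% of probe sets by mean level were not tested, leaving 9316. limma 3.58.1 in R 4.3.3 was run with lmFit and eBayes with a trend, two-sided, with Benjamini-Hochberg adjustment at 0.05. It was tried on simulated data with planted differences of 1 and 2 log2 units. The serum fit recovered 70% and 97% of these and the cytoplasmic fit 48% and 94%. The polyribosome against undertranslated fit recovered 5% and 54%. The simulation changed far fewer probe sets than passed in either pool comparison of the data, so its adjustment was stricter. Cytoplasmic arrays, which have no replicate, were given the spread of the polyribosome arrays. The recovered shares may therefore not carry over to the data, and members that did not pass may still differ. The serum and cytoplasmic comparisons used 6 arrays with serum state and pool as terms, the gradient comparisons 8 arrays in 4 groups, and the polyribosome serum response 4 arrays. Of several probe sets of a gene, the brightest on average is given unless the text says otherwise. The called probe sets of Slc39a4, Slc29a1, Slc30a5, Slc33a1 and Slc25a5 carry the suffix that marks a reduced probe choice. Named were members called for serum, the 8 largest called differences each way between pools with up to 4 bounds, and a fixed list. Chosen after their values were seen were Slc25a14, Slc8a1 for serum, Slc2a2, Slc5a1, Slc32a1, Slc35b1, Slc5a6 and the members set side by side. The members, classes and lists were chosen with earlier results of these data known. Atf1 was not checked here. The number of arrays limits the precision. Since all gradient arrays numbered 2 had 4-thiouridine, the labels' numbers pair arrays by treatment. Same-numbered arrays deviated from their group means with r = 0.275 for polyribosomes and r = 0.0171 to 0.0535 for other pairs of groups.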

Additional observations from a re-analysis of the deposited data

How the results depend on the processing

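Alternatives changed 1 choice at a time. The counts below are of members, without the share of all probe sets called in the same fit. In the serum response of polyribosome and cytoplasmic RNA, the 2 called members became 1 with values as deposited or centred arrays, 0 with hybridization control scaling, no filter or no variance trend, and 4 with the replicate block. Leaving out 1 array gave 0 to 1. In the polyribosome against undertranslated comparison, the 65 calls became 122 as deposited, 127 with hybridization control scaling and 30 where only probe sets above background on all 8 gradient arrays were fitted, which are fewer. Leaving out 1 array gave 46 to 81. Against cytoplasmic RNA, the 26 calls became 94 as deposited, and 7 to 30 without 1 array. For the change with serum, calls ran from 0 to 10 without 1 array. In undertranslated RNA alone, 1 member passed with no filter (Slc4a5) and 1 with no trend (Slc25a3), and 0 to 22 without 1 array. In polyribosome RNA alone 2 passed with the replicate block, and 0 without 1 array. The replicate block moved no other count by over 1.5 times. The cause was not tested. Hybridization control scaling, and the fits of probe sets above background, were chosen after seeing the data. The undertranslated arrays limit the depth: their signal was near background. Some small log2 differences changed sign, that of Slc20a1 against undertranslated RNA being called in the reported fit. Relative to the median of all probe sets, the 3 other scalings give the same value by construction. In the serum response this was 0.00456 for Slc25a3 and -0.0509 for Slc6a6. Without 1 array, in the serum response, Slc19a1 ran from -0.00386 to 0.0752, Slc29a1 ran from -0.139 to 0.335, Slc3a2 ran from -0.22 to 0.162, Slc25a3 ran from -0.278 to 0.188. Likewise Slc6a6 ran from -0.0606 to 0.0732, Slc31a1 ran from -0.249 to 0.256, Slc25a4 ran from -0.0149 to 0.173, Slc25a5 ran from -0.0805 to 0.306. Likewise Slc30a1 ran from -0.151 to 0.0301. Against undertranslated RNA, that shared value of the 3 other scalings was 0.039 for Slc20a1, -0.195 for Slc2a3 and -0.48 for Slc39a1. Without 1 array, against undertranslated RNA, Slc11a1 ran from -0.499 to 0.297, Slc19a1 ran from -0.654 to 0.228, Slc31a1 ran from -0.139 to 0.327, Slc39a1 ran from -0.157 to 0.241. With the replicate block, against cytoplasmic RNA, Slc11a1 was at -0.0135, Slc25a3 was at 0.0794, Slc25a5 was at -0.226. Without 1 array, against cytoplasmic RNA, Slc29a1 ran from -0.0403 to 0.758, Slc11a1 ran from -0.182 to 0.563, Slc1a5 ran from -0.596 to 0.15, Slc25a3 ran from -0.341 to 0.00859. Likewise Slc25a5 ran from -0.107 to 0.182.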
